A study of Mus musculus with 5 samples.

Results

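Store-operated calcium entry was examined through 10 genes of a table of 27678: the STIM sensors Stim1 and Stim2, the channel subunits Orai1, Orai2 and Orai3, the regulators Cracr2a and Cracr2b, and the IP3 receptors Itpr1, Itpr2 and Itpr3. All 10 were matched by symbol. The set was selected on measured values, since it was assembled with the genotype difference of these same libraries known. The members' values between genotypes are therefore given as a description, with intervals. Where calls among the members are counted, they retest the values that chose the set and nothing is read from them.

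Libraries came from bone marrow cells of Etv3-/- mice (3 libraries) and of Etv3+/+ mice (2 libraries). The Etv3 product belongs to the ETS transcription factors. In both genotypes marrow was grown for 6 days with GM-CSF (20 ng/ml) and IL-4 (5 ng/ml), which drive progenitors towards dendritic cells. CD11c+ CD11b-intermediate MHC class II-high CD115- live single cells were then sorted, to a purity above 95%, and up to 60000 of them gave the RNA of a library. The sources used here do not give strain, age, sex, the disrupted part of Etv3 or whether replicates were separate animals or cultures. They name no stimulus beyond these cytokines, and the values are transcript levels, not calcium flux.

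In store-operated calcium entry, signalling through phospholipase C makes IP3, which opens IP3 receptors in the endoplasmic reticulum and empties its calcium store. STIM proteins in the reticulum membrane sense the emptying through a luminal EF hand, move to junctions with the plasma membrane and open channels built of ORAI subunits. CRACR2A and CRACR2B are cytosolic EF-hand proteins that were described as regulators of the ORAI and STIM complex. The calcium that enters acts through calmodulin, on calcineurin and its target NFAT among others, and dendritic cells are known to use this route downstream of several surface receptors.

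Recovered depth was 42983550 to 68253936 reads per library. Mitochondrial transcripts held 1.10 to 3.17% of normalized counts in Etv3-/- libraries, and 1.98 and 6.64% in Etv3+/+ replicates 1 and 2. Etv3 itself had 18691, 20416 and 22856 normalized counts in Etv3-/- libraries and 23050 and 25447 in Etv3+/+ libraries (limma log2 fold change -0.23, adjusted p = 0.567), so the gene total does not check the genotype labels. Of 12 dendritic cell markers, 12 were detected in the cells and 0 were called by the limma test described with the members, while 4 were higher at an unadjusted p under 0.05, and edgeR called 1 and DESeq2 4 of them higher. Itgax, which encodes CD11c, had 14061, 10505 and 16076 normalized counts in Etv3-/- libraries and 9808 and 10549 in Etv3+/+ libraries, which overlapped. The sum of the 12 dendritic cell markers did not overlap. It was 2418660 to 3221111 in Etv3-/- libraries and 1238599 to 1635885 in Etv3+/+ libraries, with a median log2 fold change of 0.30 over the markers. Most of this sum in every library came from the MHC class II presentation genes Cd74, H2-Ab1 and H2-Aa (log2 fold changes 0.71, 1.56 and 1.24). H2-Eb1 (1.58), Itgam (1.28) and Zbtb46 (0.20) were also higher in each Etv3-/- library. Flt3 (0.02), Ccr7 (-0.07), Cd86 (-0.19), Batf3 (-0.19) and Irf4 (-0.47) overlapped, so the sum does not stand for all the markers. The sum of 13 macrophage and monocyte markers was 57993 to 77740 in Etv3-/- libraries and 35736 to 36983 in Etv3+/+ libraries, with 3 of them, C1qa, C1qb and C1qc, called higher by limma and 9 higher at an unadjusted p under 0.05, 3 called by edgeR and 8 by DESeq2. The sum of 10 B cell markers was 4551 to 7473 in Etv3-/- libraries and 2089 to 2528 in Etv3+/+ libraries, with 0 called by limma, 6 higher at an unadjusted p under 0.05, 0 edgeR calls and 4 higher by DESeq2, and none at 0 in all libraries. T and NK cell markers summed to 3025 to 4280 in Etv3-/- libraries and 4836 to 5630 in Etv3+/+ libraries, with Ncr1 at 0. The ranges of mast cell and basophil, neutrophil, and platelet marker sums overlapped between genotypes, with Mcpt4 and Gp1bb at 0. Each gene's log2 level was also taken as its deviation from the gene's mean over the 5 libraries. Across genes, the rank correlation of this deviation with GC content was -0.10 to 0.41 in Etv3-/- libraries. It was 0.04 and -0.43 in Etv3+/+ replicates 1 and 2. The part of these cell markers, of the mitochondrial share and of GC content in the results was not tested beyond the GC-corrected values given in the closing section.

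Reads of Cracr2a and Cracr2b could be confused only if the related genes shared sequence, so their coding sequences were compared first. The longest annotated coding sequence held 1182 bases for Cracr2b (chr7:141461094-141466613, plus strand, GRCm38) and 2178 bases for Cracr2a (chr6:127561338-127674248, plus strand). Over 943 aligned bases 56.1% were identical, and the longest shared run was 13 bases. The stretch of 45 bases with the most identical positions, 32 of 45, is printed here as the place where the sequences come closest, with identical bases in capitals. It spans bases 97 to 141 of the Cracr2b coding sequence and 145 to 189 of that of Cracr2a.
Cracr2b: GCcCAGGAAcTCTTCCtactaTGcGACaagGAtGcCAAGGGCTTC
Cracr2a: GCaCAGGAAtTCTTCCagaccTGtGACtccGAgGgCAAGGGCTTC
Even here the genes differed at many positions, and none of the 2843 distinct stretches of 50 bases in Cracr2b transcripts occurred in a transcript of another of the 10 genes. Another source of shared reads was larger. Of those stretches 1082, or 38.1%, were also covered by Gm10575, a gene annotated on the opposite strand. Gm10575 was not among the genes of the deposited counts, so its level is not known. The sources used here do not say whether counting used strand, so reads of Cracr2b and of that overlapping gene cannot be told apart. The share was 7.95% for Cracr2a, with Gm43634, and at most 1.51% for the other 8 genes.

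Promoter sequences were looked up for all 10 genes in RefSeq (GRCm38.p6), and 8 had an entry. Cracr2b and Itpr1 had none. ETS factors bind DNA at sites with a GGAA core. The 250 bases before each RefSeq start were therefore searched for GGAA on both strands (TTCC when read on the other strand). The core was in 7 of 8 member promoters, and in 93.4% of all 32851 promoters, so its presence did not set the members apart. The only match of Orai2 lay past the start of the gene in the GENCODE M21 annotation. The longer word GGAAGT, which contains the core, was in 2 of 8, those of Cracr2a and Orai3, and in 19.7% of all promoters. The upstream sequences of Orai1 and Stim2 are shown because the libraries of the genotypes did not overlap for these genes. The core is in capitals, and the Stim2 sequence stops after 226 bases, where GENCODE M21 starts the gene.
Orai1 promoter (chr5:123014824-123015073, plus strand): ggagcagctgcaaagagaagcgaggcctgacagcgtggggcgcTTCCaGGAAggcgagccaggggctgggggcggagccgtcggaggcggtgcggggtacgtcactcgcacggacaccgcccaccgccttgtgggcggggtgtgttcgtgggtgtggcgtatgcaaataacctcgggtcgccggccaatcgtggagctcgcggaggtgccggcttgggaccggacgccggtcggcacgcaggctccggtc
Stim2 promoter (chr5:53998273-53998498, plus strand): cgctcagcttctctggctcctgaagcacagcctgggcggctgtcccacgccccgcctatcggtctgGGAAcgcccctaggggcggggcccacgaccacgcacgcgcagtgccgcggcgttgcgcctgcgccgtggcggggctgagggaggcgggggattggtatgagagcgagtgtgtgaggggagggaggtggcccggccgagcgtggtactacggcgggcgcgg
A match is a string of letters, and no binding was measured in these files.

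Cracr2b (ENSMUSG00000048200.12) had the widest separation of the 10 genes. It had 5115, 4752 and 4139 normalized counts in Etv3-/- libraries, against 793 and 773 in Etv3+/+ libraries. All 3 Etv3-/- libraries were far above both Etv3+/+ libraries, and the spread within each genotype was small beside the gap. The means were 4669 ± 494 (SD, n = 3) in Etv3-/- and 783 ± 14.4 (SD, n = 2) in Etv3+/+, a 5.96-fold ratio. On the log2(normalized count + 1) scale the difference was 2.57, with a 95% interval of 2.05 to 3.09. These values rested on 3837 to 4756 recovered reads in Etv3-/- libraries and 851 to 903 in Etv3+/+ libraries, so counting error was small. In bulk RNA, a different number of expressing cells and a different amount of RNA per cell cannot be told apart, here and for every gene below. Its exons have a GC content of 60.5%.

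Cracr2a (ENSMUSG00000061414.8), whose longer human form also carries a Rab GTPase domain, was far lower. Cracr2a had 172, 109 and 72.8 normalized counts in Etv3-/- libraries, against 33.6 and 73.6 in Etv3+/+ libraries. Etv3-/- replicate 3 lay just under Etv3+/+ replicate 2, so the genotypes overlapped. The means were 118 ± 50.3 (SD, n = 3) in Etv3-/- and 53.6 ± 28.3 (SD, n = 2) in Etv3+/+, and the log2 difference was 1.14 (95% interval -0.58 to 2.87). With 36 to 160 reads per library, this gene was the most shallowly counted of the set.

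**Figure D1:**
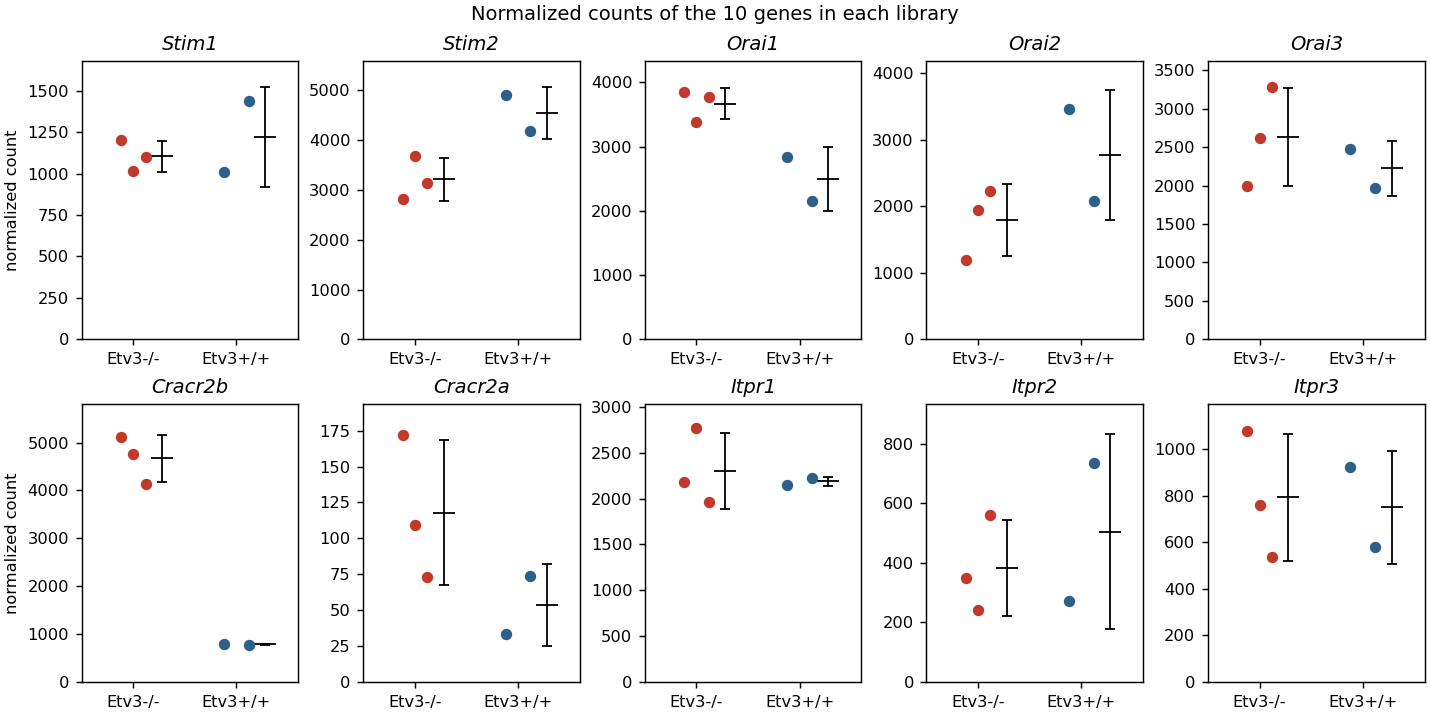
Normalized counts of each of the 10 genes (vertical axes, linear, from 0) in 3 Etv3-/- libraries (red, left) and 2 Etv3+/+ libraries (blue, right); bars are mean ± SD. Cracr2b lies between 4139 and 5115 in Etv3-/- and at 773 and 793 in Etv3+/+, while points of 7 genes overlap between genotypes.

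Among channel subunits, Orai1, the main pore subunit of the classical channel, was higher in every Etv3-/- library. Orai1 (chr5:123015074-123030456, plus strand) had 3849, 3390 and 3771 normalized counts in Etv3-/- libraries, against 2846 and 2149 in Etv3+/+ libraries. The lowest Etv3-/- value stood above the highest Etv3+/+ value. The means were 3670 ± 246 (SD, n = 3) in Etv3-/- and 2498 ± 493 (SD, n = 2) in Etv3+/+, a 1.47-fold ratio, and the log2 difference was 0.57 (95% interval 0.05 to 1.09). Its size leaned on the Etv3+/+ libraries: the log2 difference was 0.77 without Etv3+/+ replicate 1 and 0.36 without Etv3+/+ replicate 2.

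Orai2, which is known in mouse immune cells to form mixed channels with ORAI1 that pass less current, leaned the other way. Orai2 (chr5:136147459-136170713, minus strand) had 1189, 1948 and 2234 normalized counts in Etv3-/- libraries, against 3457 and 2077 in Etv3+/+ libraries. Etv3-/- replicate 3 exceeded Etv3+/+ replicate 2, so the genotypes overlapped, and the log2 difference was -0.63 (95% interval -1.45 to 0.19). Orai3 (chr7:127769815-127775150, plus strand), the subunit found in mammals alone, had 2001, 2623 and 3280 normalized counts in Etv3-/- libraries, against 2480 and 1968 in Etv3+/+ libraries. These too overlapped, and the Etv3-/- libraries spread the more widely (log2 difference 0.22, 95% interval -0.42 to 0.87).

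Of the sensors, Stim2, which responds to small losses of stored calcium and sets the basal level, was lower in every Etv3-/- library. Stim2 (chr5:53998499-54121057, plus strand) had 2817, 3674 and 3145 normalized counts in Etv3-/- libraries, against 4907 and 4179 in Etv3+/+ libraries. The groups did not overlap. The means were 3212 ± 433 (SD, n = 3) in Etv3-/- and 4543 ± 515 (SD, n = 2) in Etv3+/+, 1.41-fold lower in Etv3-/-, and the log2 difference was -0.50, with a 95% interval of -1.01 to 0.01 that just crossed 0. Stim1 (chr7:102267806-102437319, plus strand), the sensor of deeper store depletion, had 1200, 1014 and 1100 normalized counts in Etv3-/- libraries, against 1009 and 1436 in Etv3+/+ libraries. The Etv3-/- values fell inside the Etv3+/+ range. Its log2 difference was -0.13 (95% interval -0.79 to 0.53), and its sign turned to 0.13 without Etv3+/+ replicate 2.

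The IP3 receptors, the release channels upstream of the sensors, showed no separation by genotype. Itpr1 (chr6:108213096-108551109, plus strand) had 2184, 2767 and 1962 normalized counts in Etv3-/- libraries, against 2153 and 2220 in Etv3+/+ libraries. Itpr2 (chr6:146108299-146502223, minus strand) had 350, 241 and 559 in Etv3-/- libraries, against 273 and 737 in Etv3+/+ libraries. Itpr3 (chr17:27057304-27122223, plus strand) had 1078, 762 and 538 in Etv3-/- libraries, against 922 and 578 in Etv3+/+ libraries. All 3 receptors overlapped between genotypes, and Itpr2 and Itpr3 varied more than 2-fold within Etv3-/- alone. Their log2 differences were 0.06 for Itpr1 (95% interval -0.50 to 0.62), -0.31 for Itpr2 (95% interval -1.62 to 1.00) and 0.06 for Itpr3 (95% interval -0.87 to 0.99). The interval of Itpr1 was the narrowest of the 3. It took in the difference seen for Orai1 and ended just short of that of Stim2. The intervals of Itpr2 and Itpr3 took in the differences of Orai1 and Stim2 alike.

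All 10 genes passed the filter on low values, which asked for 10 normalized counts in 2 libraries or more, as did 13813 genes in all. A gene was called when limma, fitted to all 13813 genes, gave a two-sided Benjamini-Hochberg adjusted p under 0.05. Of the 10 genes 1, Cracr2b, was called higher, where 0.876% of all tested genes were called higher. None was called lower, where 0.319% of all were. On recovered reads edgeR and DESeq2 also called 1 higher and 0 lower, where edgeR called 0.825% of all tested genes higher and 0.319% lower, and DESeq2 4.85% higher and 4.10% lower among the 13276 genes to which it gave an adjusted p. At an unadjusted p under 0.05, limma had 2 of the 10 higher and 0 lower, where 8.02% of all were higher and 9.93% lower. The libraries of Etv3-/- were all above both of Etv3+/+ for 2 of the 10, Cracr2b and Orai1, and for 16.7% of all tested genes. They were all below for 1 of the 10, Stim2, and for 19.3% of all. The median log2 difference was 0.06 over the 10 genes and -0.06 over all tested genes. Since the genotype contrast was known when the genes were picked, nothing is read from these counts.

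**Figure D2:**
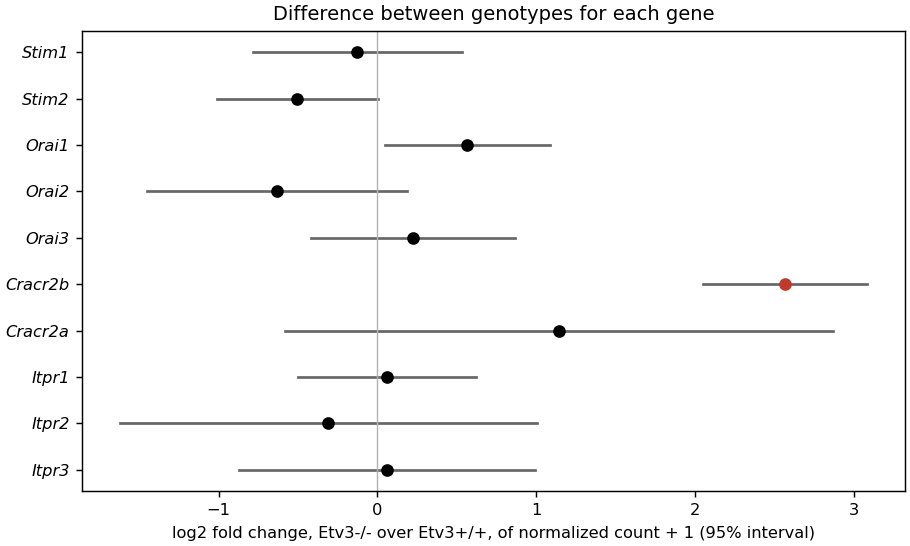
Log2 difference of normalized count + 1, Etv3-/- over Etv3+/+ (horizontal axis), with its 95% interval, for each of the 10 genes; red marks the gene called by limma. Cracr2b stands at 2.57, and the other 9 lie between -0.63 and 1.14.

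Levels were then compared between genes after scaling by exon length, as recovered reads per kilobase of exon and per depth of the library (RPKM, the usual scaling). On this scale the 10 genes kept nearly the same order in both genotypes, with 1 displacement. Cracr2b was the highest of the 10 in Etv3-/- cells at 32.2 ± 3.52 (SD, n = 3), and the fifth in Etv3+/+ cells at 5.12 ± 0.472 (SD, n = 2). Within its spread the next, Orai1, did not differ from it in Etv3-/- cells. Orai1 averaged 30.5 ± 2.41 in Etv3-/- and 19.8 ± 5.34 in Etv3+/+, and Orai3 averaged 23.4 ± 5.65 in Etv3-/- and 18.9 ± 4.44 in Etv3+/+. In Etv3+/+ cells Orai1, Orai3 and Stim2, at 16.1 ± 2.99, were neighbours within their spread. Stim2 averaged 11.9 ± 1.45 in Etv3-/-, and Orai2 followed with 5.60 ± 1.67 in Etv3-/- and 8.33 ± 3.51 in Etv3+/+. Itpr1 (2.39 ± 0.404 in Etv3-/-, 2.15 ± 0.113 in Etv3+/+) and Stim1 (2.03 ± 0.196 in Etv3-/-, 2.11 ± 0.368 in Etv3+/+) did not differ beyond their spread. Itpr3 averaged 1.68 ± 0.586 in Etv3-/- and 1.52 ± 0.598 in Etv3+/+, and Itpr2 0.494 ± 0.211 in Etv3-/- and 0.601 ± 0.355 in Etv3+/+. Cracr2a was the lowest in both, at 0.288 ± 0.125 in Etv3-/- and 0.121 ± 0.0562 in Etv3+/+.

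Within the families, the same length-scaled levels gave the makeup in each library. Orai1 held 59.7, 48.9 and 46.4% of the ORAI sum in Etv3-/- libraries and 41.8 and 42.6% in Etv3+/+ libraries. Orai2 held 6.97, 10.6 and 10.4% in Etv3-/- libraries and 19.2 and 15.6% in Etv3+/+ libraries. The shares of Orai1 were thus higher, and those of Orai2 lower, in each Etv3-/- library, while that of Orai3 overlapped. The ratio of Orai1 to Orai2 was 8.58, 4.61 and 4.47 in Etv3-/- libraries and 2.18 and 2.74 in Etv3+/+ libraries, again without overlap. The sum of the ORAI genes itself was 54.1, 56.8 and 67.7 RPKM in Etv3-/- libraries and 56.4 and 37.6 in Etv3+/+ libraries, which overlapped.

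Stim2 made up most of the STIM sum everywhere, with 82.6, 88.0 and 85.2% in Etv3-/- libraries and 90.8 and 85.5% in Etv3+/+ libraries. That share overlapped between genotypes, while the STIM sum did not: it was 12.8, 15.3 and 13.7 in Etv3-/- libraries and 20.0 and 16.3 in Etv3+/+ libraries. The ratio of Orai1 to Stim2, channel to sensor, was 3.06, 2.06 and 2.68 in Etv3-/- libraries and 1.30 and 1.15 in Etv3+/+ libraries. Every Etv3-/- ratio was above both Etv3+/+ ratios, which follows from Orai1 being higher and Stim2 lower in every Etv3-/- library. The STIM sum likewise mostly restates Stim2. Itpr1 and Itpr3 were the larger parts of the IP3 receptor sum in each library, and Itpr2 held 6.48 to 18.5% in Etv3-/- and 7.75 to 21.2% in Etv3+/+ libraries. Cracr2b was 98.8 to 99.4% of the CRACR2 sum in Etv3-/- libraries and 96.7 to 98.5% in Etv3+/+ libraries. Its ratio to Orai1 was 1.10, 1.16 and 0.911 in Etv3-/- libraries and 0.231 and 0.299 in Etv3+/+ libraries, so Cracr2b stood near the Orai1 level in Etv3-/- cells and well below it in Etv3+/+ cells.

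**Figure D3:**
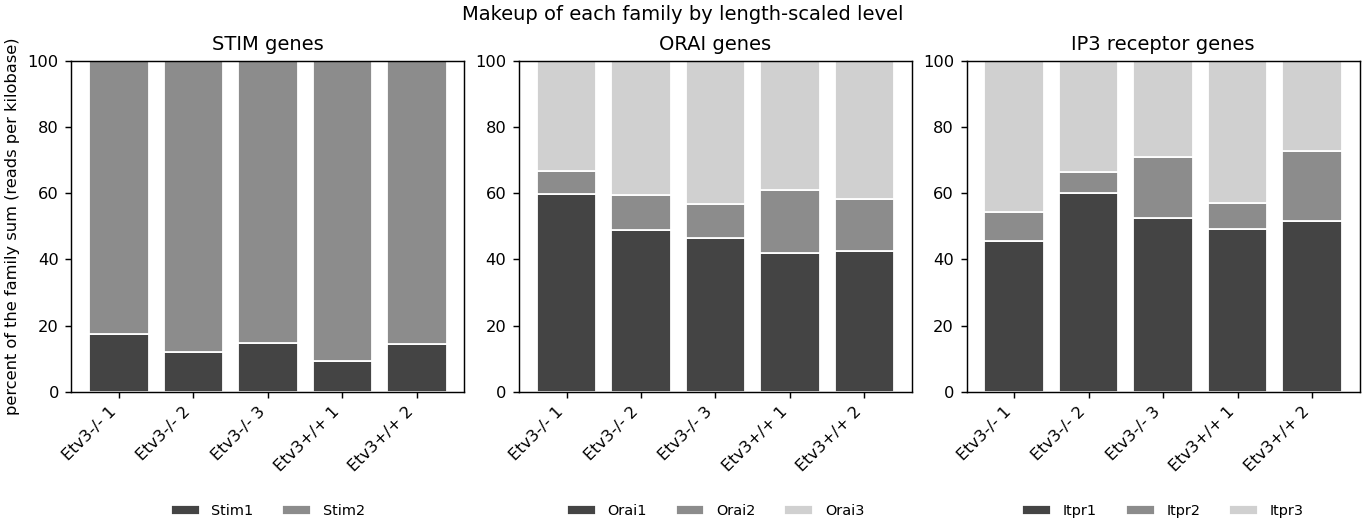
Share of each STIM, ORAI and IP3 receptor gene (percent of the family's reads per kilobase, vertical axes) in each library, Etv3-/- libraries left of Etv3+/+ libraries. Orai2 takes 6.97 to 10.6% of the ORAI sum in Etv3-/- and 15.6 to 19.2% in Etv3+/+, and Stim2 over 80% of the STIM sum in all 5 libraries.

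Genes beside Cracr2b on chromosome 7 were examined next, as values from the same fit that the choice of members did not use. Within 20000 bases 8 genes were annotated and 7 were in the table, with 0 called by limma, edgeR or DESeq2, and 0 at an unadjusted limma p under 0.05. Pnpla2, the adipose triglyceride lipase gene that ends 351 bases upstream on the same strand, had 3858, 4092 and 5406 normalized counts in Etv3-/- libraries and 4220 and 4031 in Etv3+/+ libraries. These overlapped (limma log2 fold change 0.09, adjusted p = 0.865). Cd151, a tetraspanin gene 779 bases downstream, had 476, 426 and 154 in Etv3-/- libraries and 232 and 342 in Etv3+/+ libraries, with overlap as well (log2 fold change 0.16, limma adjusted p = 0.913). The difference at Cracr2b was thus not matched by either adjoining gene. Farther off, Rplp2 (log2 fold change 0.51) and Tspan4 (0.59) were higher in every Etv3-/- library, and Pidd1 (-0.54) was lower. Such separation was seen for 16.7% of all tested genes upwards and 19.3% downwards. Polr2l overlapped (0.02), and Snora52 was at 0 in all libraries and not tested.

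The rest of the calcium route was described through 8 lists of 156 names, of which 155 were in the table and 121 passed the filter. Of these 121, limma called 3 higher and 0 lower (2.48%, beside 0.876% higher and 0.319% lower among all tested genes). At an unadjusted p under 0.05 there were 15 higher (12.4%) and 17 lower (14.0%), where 8.02% of all tested genes were higher and 9.93% lower. On recovered reads edgeR called 2 higher and 1 lower (0.825% and 0.319% of all), and DESeq2 14 higher (11.6%) and 4 lower (3.31%), beside 4.85% and 4.10% of all. The lists were chosen with earlier results of these data known, so these counts are a description and give no independent support. The counts of single lists below are to be read beside these shares of all genes. The median log2 fold change was -0.03, close to the -0.06 of all tested genes. The libraries of Etv3-/- were all above those of Etv3+/+ for 25 of the 121 (20.7%) and all below for 26 (21.5%), near the 16.7% and 19.3% of all tested genes.

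The called genes sat at 3 separate steps: a store pump, an IP3 receptor partner and an IP3-forming enzyme. Atp2a3, which encodes SERCA3, a pump that refills the store, had 7414, 5660 and 6802 normalized counts in Etv3-/- libraries, against 1402 and 1020 in Etv3+/+ libraries. Each Etv3-/- library was several-fold above both Etv3+/+ libraries. The means were 6625 ± 890 (SD, n = 3) in Etv3-/- and 1211 ± 270 (SD, n = 2) in Etv3+/+, and Atp2a3 rose with a log2 fold change of 2.46 (limma adjusted p = 0.00886). The 5.47-fold ratio of its means was of the same order as the 5.96-fold of Cracr2b. Atp2a2, the widespread SERCA2 pump, averaged 3178 ± 625 in Etv3-/- and 2625 ± 707 in Etv3+/+ and overlapped (log2 fold change 0.28, limma adjusted p = 0.626).

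Lrmp (now Irag2), which encodes a reticulum membrane protein that binds IP3 receptors, had 1826, 2671 and 2105 normalized counts in Etv3-/- libraries, against 255 and 526 in Etv3+/+ libraries. The genotypes were well apart, and Lrmp rose with a log2 fold change of 2.56 (limma adjusted p = 0.0280). Plcg2, the phospholipase C that acts behind B cell and Fc receptors and makes IP3, had 6397, 6468 and 8259 normalized counts in Etv3-/- libraries, against 3236 and 2607 in Etv3+/+ libraries. These did not overlap either, and Plcg2 rose with a log2 fold change of 1.27 (limma adjusted p = 0.0455, just inside the threshold). Lrmp and Plcg2 are also expressed in B cells, whose 10 markers were summed to 4551 to 7473 in Etv3-/- libraries and 2089 to 2528 in Etv3+/+ libraries. The part of these cells was not tested, for Atp2a3 as little as for Lrmp and Plcg2. Over 15 alternative settings Atp2a3 kept its call in 11, Lrmp in 10 and Plcg2 in 7, with log2 fold changes of 2.23 to 2.69, 2.04 to 3.08 and 1.10 to 1.42. None of the 3 was called without Etv3-/- replicate 1, 2 or 3, where Atp2a3 had log2 fold changes of 2.37, 2.57 and 2.44, Lrmp 2.69, 2.42 and 2.59, and Plcg2 1.33, 1.32 and 1.15. Lrmp was also not called without Etv3+/+ replicate 1 (2.04), nor Plcg2 without Etv3+/+ replicate 1 (1.42) or 2 (1.11).

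Of 13 phospholipase C genes tested, limma called 1 higher and 0 lower, with a median log2 fold change of -0.03. At an unadjusted p under 0.05 there were 2 higher and 2 lower, edgeR called 0 and DESeq2 2 higher and 0 lower. Of 22 regulators of STIM, ORAI and IP3 receptors, limma called 1 higher and 0 lower (median -0.17), with 2 higher and 2 lower at an unadjusted p under 0.05, 1 higher and 0 lower by edgeR, and 3 higher and 1 lower by DESeq2. Of 12 calcium pumps and exchangers, limma called 1 higher and 0 lower (median -0.30), with 1 higher and 4 lower at an unadjusted p under 0.05, and 1 higher and 1 lower by edgeR and by DESeq2 alike. Saraf, a negative regulator of STIM, averaged 7594 ± 1166 normalized counts in Etv3-/- and 5296 ± 1282 in Etv3+/+ (log2 fold change 0.53, limma adjusted p = 0.298). Stimate, which encodes a reticulum protein that helps STIM reach the junctions, averaged 3054 ± 289 in Etv3-/- and 2456 ± 135 in Etv3+/+ (log2 fold change 0.31, limma adjusted p = 0.478). Neither passed the test. Saraf, Stimate and Atp2a2 were picked for their roles, outside the naming rule and after their values were seen.

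Downstream of entry, limma called 0 of 19 calcineurin, NFAT and calmodulin genes, with 2 higher and 7 lower at an unadjusted p under 0.05, 0 by edgeR, and 2 higher and 2 lower by DESeq2. Their median log2 fold change was -0.34. Calm2, a calmodulin gene, had 25033, 34978 and 20233 normalized counts in Etv3-/- libraries, against 40073 and 50585 in Etv3+/+ libraries. The groups did not overlap, yet Calm2 did not pass the test (log2 fold change -0.79, limma adjusted p = 0.205). Reads of calmodulin pseudogenes may be shared with it, which makes its counts uncertain.

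In the 4 lists left, limma called none. Of 11 calmodulin-dependent kinase genes 1 was higher and 0 lower at an unadjusted p under 0.05, with 0 calls by edgeR and 1 by DESeq2. Camkk2, an upstream kinase of that cascade, averaged 1047 ± 162 in Etv3-/- and 930 ± 433 in Etv3+/+, and Camk1, its target, 706 ± 167 in Etv3-/- and 1414 ± 821 in Etv3+/+. Of 11 mitochondrial uptake genes 1 was lower at an unadjusted p under 0.05, with 0 calls by edgeR and by DESeq2. Vdac2, an outer membrane pore, averaged 17172 ± 1799 in Etv3-/- and 17147 ± 997 in Etv3+/+, and Vdac1 11321 ± 2315 in Etv3-/- and 9253 ± 1198 in Etv3+/+. All 4 of these genes overlapped between genotypes.

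Of 21 other channels 6 were higher and 1 lower at an unadjusted p under 0.05, with 0 calls by edgeR and 4 higher by DESeq2, and the median log2 fold change was 0.41. Trpv2, a cation channel of myeloid cells, had 6909, 6139 and 8559 normalized counts in Etv3-/- libraries, against 4449 and 2848 in Etv3+/+ libraries. Its values did not overlap, but it did not pass the test (log2 fold change 1.00, limma adjusted p = 0.121). P2rx4, an ATP-gated channel, averaged 9877 ± 1348 in Etv3-/- and 9468 ± 2153 in Etv3+/+ and overlapped. Of 12 calcium-binding genes of the reticulum lumen 1 was higher at an unadjusted p under 0.05, with 0 calls by edgeR and 1 by DESeq2, and the median was 0.31. The chaperone genes Hspa5 and Canx averaged 52084 ± 390 and 30953 ± 8919 in Etv3-/-, against 42215 ± 4008 and 47688 ± 15191 in Etv3+/+, and of these Hspa5 alone did not overlap (log2 fold change 0.31, limma adjusted p = 0.465).

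**Figure D4:**
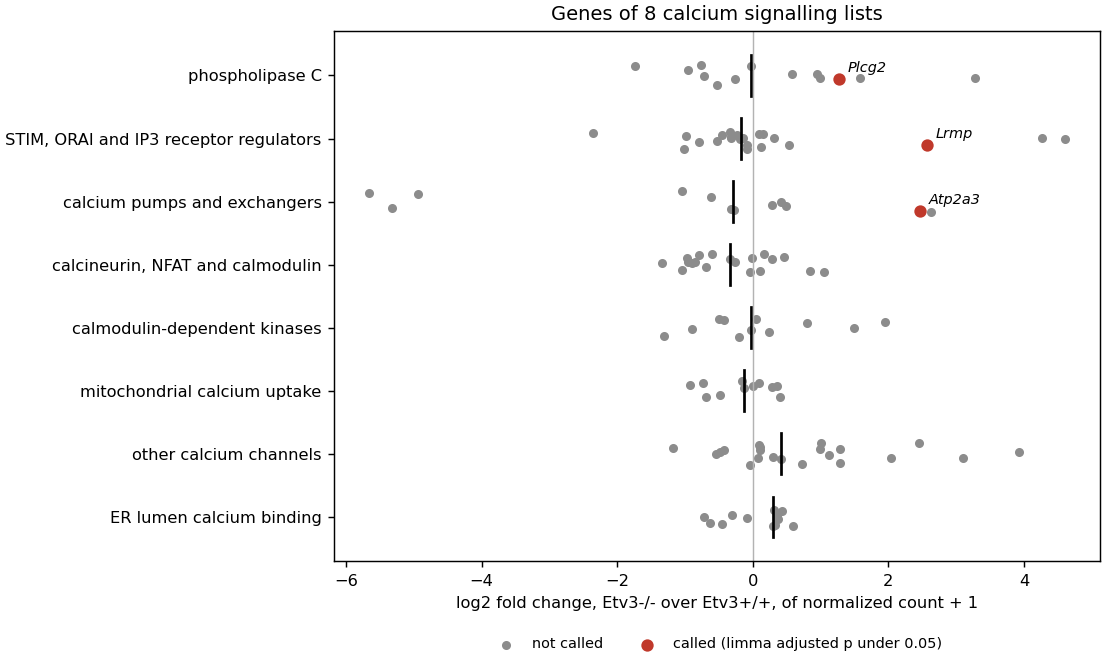
Log2 fold change of normalized count + 1, Etv3-/- over Etv3+/+ (horizontal axis), of 121 tested genes in 8 calcium lists (rows); each point is a gene, vertical bars are list medians, and points are spread vertically for legibility. Red points, Atp2a3 at 2.46, Lrmp at 2.56 and Plcg2 at 1.27, are the genes called by limma.

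The genes whose pattern was most like that of Cracr2b were found by the Euclidean distance of log2(normalized count + 1), centred on each gene's mean, over the 5 libraries. The median distance of a tested gene was 3.11. Ms4a6d, a member of the MS4A family of membrane proteins, was the nearest at 0.21, with 2283, 2057 and 1820 normalized counts in Etv3-/- libraries and 388 and 394 in Etv3+/+ libraries. Rgs14, a regulator of G protein signalling, followed at 0.43, with 855, 1056 and 810 in Etv3-/- libraries and 145 and 187 in Etv3+/+ libraries. AC109619.1 (0.43), Gcg (0.44) and Dock5, a Rac activator (0.45), came next. Gcg, the glucagon gene, rested on 18 to 24 reads per library in Etv3-/- and 3 to 5 in Etv3+/+. Over 5 libraries, such nearness mostly reflects a genotype difference of like size, and it is a description of these libraries.

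None of the 9 other members was among the 5. Cracr2a was the nearest of them at 1.88, the 590th of all tested genes, and Orai1 followed at 2.22, the 1310th. Orai2, at 3.65, was the farthest of the members from Cracr2b and lay beyond the median of all genes. The Euclidean distance mostly restates the size of the log2 differences given above, so it is not separate evidence on the members' pattern.

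**Figure D5:**
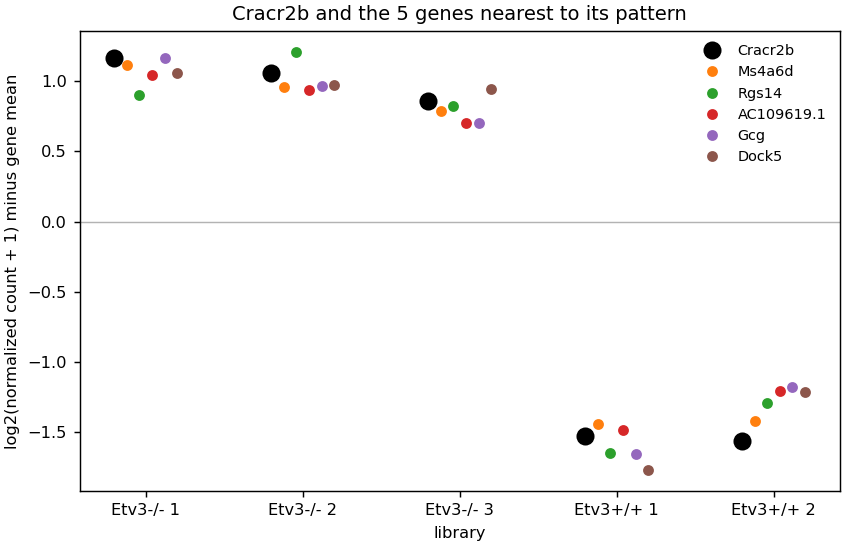
Log2(normalized count + 1) minus the gene's mean (vertical axis) in each library (horizontal axis, Etv3-/- left of Etv3+/+) for Cracr2b (black) and the 5 genes nearest to it; points are offset sideways for legibility. All 6 genes lie above their mean in the 3 Etv3-/- libraries and below it in both Etv3+/+ libraries.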

How the data were processed

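RNA-seq was measured in 5 libraries. The authors deposited normalized counts for 27678 genes, a signal in which reads are scaled per library. Their tools included DESeq2 1.26.0, featureCounts and Subread 1.6.3, STAR 2.7.3a and Trimmomatic 0.36 on mm10, per the submitters' processing notes. Annotation, strand setting and any filter: not given in the sources used here. Division by each library's step gave whole reads, within 0.1, for 100% of values. The labels state no molecular identifiers, so PCR copies cannot be told from molecules.

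Members and lists were chosen with earlier results of these data known. Genes with 10 or more normalized counts in at least 2 libraries were fitted with limma 3.58.1 (trend, R 4.3.3) on log2(value + 1), genotype alone, two-sided, Benjamini-Hochberg threshold 0.05. The log scale with its pseudocount of 1 understates changes of low genes. P-values measure the spread between these libraries, which may be technical. With 2 against 3 libraries an exact permutation test cannot go below p = 0.1.

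The alternatives were DESeq2 1.42.0 or edgeR 4.0.16 on recovered reads, other pseudocounts, filters and scaling, limma without trend, a GC and length correction (local regression, span 0.3, 98.5% of tested genes), a replicate block, and leaving out each library. The procedure was tested on simulated data. Exon lengths (union) and positions came from GENCODE M21, sequences were aligned with Biopython 1.88, and figures drawn with matplotlib 3.10.9. Named genes were the 10 members, Etv3, up to 4 called genes of each calcium list or else the 2 with the highest mean, and the 5 genes nearest to Cracr2b. Of 156 list names 1, an older symbol of Septin4, was not in the table under that name, and Lrmp and Mrvi1 are the older symbols of Irag2 and Irag1. Of the genes this rule names, 1 is not reported here.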

Additional observations from a re-analysis of the deposited data

How the results depend on the processing

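Cracr2b was called in 13 of 15 alternative settings, with a log2 difference of 2.50 to 2.65, but these settings retest the libraries on which the set was chosen and give no independent support. It was not called without Etv3-/- replicate 1 (2.50) or 2 (2.55), where 0 members were called by limma and 1 had an unadjusted p under 0.05. The other 9 members were called in 0 of 15 settings. Their log2 differences were 0.59 to 1.70 for Cracr2a, 0.36 to 0.77 for Orai1, -0.999 to -0.26 for Orai2 and -0.62 to -0.33 for Stim2, and for Orai3, Stim1, Itpr1, Itpr2 and Itpr3 the range took in both signs. With the GC and length correction Cracr2b stayed called. All genes called numbered 165 at the settings reported, 1188 with DESeq2, 362 with the GC and length correction, 261 with a mean filter of 50, 93 without trend and 269 with the replicate block, and 0 to 80 when a library was left out, the 0 being without Etv3-/- replicate 1, where 1885 genes had an unadjusted p under 0.05. Higher against lower calls were 121 to 44 at the settings reported, 644 to 544 with DESeq2, 243 to 119 with the GC and length correction, 173 to 88 with the mean filter, 44 to 49 without trend and 151 to 118 with the replicate block. Calcium list genes called numbered 3, against 18 with DESeq2, 8 with the GC and length correction, 6 with the mean filter, 5 with pseudocount 5 and 1 without trend (Atp2b4), and 0 to 3 when a library was left out. The count was 0 without each of the Etv3-/- libraries, where 24, 29 and 27 calcium genes had an unadjusted p under 0.05 without replicates 1, 2 and 3. With the replicate block 4 calcium genes were called. Etv3-/- replicate 3 has no Etv3+/+ library of its number, so it added nothing to the block's log2 differences. These equalled the log2 differences without that library, such as 2.65 for Cracr2b. Libraries of the same number did not deviate together (correlations of deviations across genes -0.03 and 0.04 for numbers 1 and 2), so no pairing by number was seen. With 2 Etv3+/+ libraries, whose deviations mirror each other, these correlations cannot exclude pairing. Leaving out a library also removes residual degrees of freedom. The cause of the shifts between settings, those without a library included, was not tested.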

Other observations

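Several calcium genes outside the naming rule, chosen after their values were seen, had wide gaps that missed the limma threshold. Atp2b4, which encodes a plasma membrane calcium pump, had 2.15, 2.48 and 3.51 normalized counts in Etv3-/- libraries, against 189 and 180 in Etv3+/+ libraries (log2 fold change -5.66, limma adjusted p = 0.0603). The Etv3-/- values stand for 2, 2 and 4 reads. It was called lower by edgeR and DESeq2, with the GC and length correction, with pseudocount 5 and without trend. Ryr1, a calcium release channel known from skeletal muscle, had 237, 863 and 1351 in Etv3-/- libraries, against 46.6 and 37.7 in Etv3+/+ libraries (log2 fold change 3.93, limma adjusted p = 0.0620). Etv3-/- replicate 1 lay well under the other 2 of its genotype, yet above both Etv3+/+ libraries. Ryr1 was called by DESeq2, with the GC and length correction, with the mean filter of 50 and with pseudocount 5, and not by edgeR. Tespa1, which encodes a partner of IP3 receptors known from mouse thymocytes, had 229, 365 and 552 in Etv3-/- libraries, against 6.52 and 45.4 in Etv3+/+ libraries (log2 fold change 4.27, limma adjusted p = 0.0705). Tespa1 was called by DESeq2, with the GC and length correction and without Etv3+/+ replicate 2, and not by edgeR.

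Of the genes downstream of entry, the NFAT genes Nfatc1 and Nfatc2 had higher values in each Etv3-/- library: Nfatc1 had 2763, 2992 and 2368 normalized counts in Etv3-/- libraries, against 1549 and 1468 in Etv3+/+ libraries (log2 fold change 0.84, limma adjusted p = 0.125). Nfatc2 had 1157, 1054 and 894 in Etv3-/- libraries, against 535 and 457 in Etv3+/+ libraries (log2 fold change 1.06, limma adjusted p = 0.143). Ppp3ca, which encodes a catalytic subunit of calcineurin, the phosphatase that acts on NFAT, had 8237, 8577 and 6329 in Etv3-/- libraries, against 12574 and 19845 in Etv3+/+ libraries (log2 fold change -1.05, limma adjusted p = 0.109). DESeq2 on the recovered reads called all of these 3 genes, and limma and edgeR called none of them.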
